A study of Mus musculus with 10 samples.

Results

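Sterol and fatty acid synthesis is described here through 38 listed genes, 22 of the sterol branch and 16 of the fatty acid branch, chosen by name. Of these, 33 had at least 1 probe named for them in the array platform's annotation, and 30 were tested, 18 sterol and 12 fatty acid genes, among 14859 features. Acat2, Hmgcs1, Fdft1, Acaca and Acsl1 had no probe named for them in that annotation and were not analysed here. A gene is read from the brightest of its probes by mean signal, and entered the test where 5 arrays or more detected that probe (detection p under 0.05). Mlxipl lay just inside that limit, detected on 6 arrays, and Sc5d just outside it, detected on 4. Fasn (1 array) and Me1 (no array) were also left out of the test.

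RNA came from splenic monocytes of C57BL/6 mice aged 3 months. The TCL1-AT group (5 samples) comprised mice that had received leukaemia cells of Eµ-TCL1 mice, a model of chronic lymphocytic leukaemia (CLL) in which a TCL1 transgene is active in B cells, and were taken 6 weeks later. The WT group (5 samples) had no intervention, and its samples are labelled as pools of monocytes without the number of mice. In both groups cells were sorted as lineage negative and CD11b positive with intermediate F4/80, low to intermediate CD11c and low MHC class II. How many mice stand behind a TCL1-AT sample is not given either, so p-values measure only the spread between these samples. The groups are compared to ask how monocytes of a leukaemic spleen differ in these transcripts from monocytes of a control spleen.

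Cholesterol is built from acetyl-CoA by way of mevalonate, isoprenoid units and squalene, and fatty acids are built from the same precursor by acetyl-CoA carboxylase and fatty acid synthase. The transcription factor SREBP2, encoded by Srebf2, drives the sterol enzymes when its escort SCAP is no longer held in the endoplasmic reticulum by INSIG proteins, which happens when sterols are scarce. Fatty acid genes answer mainly to SREBP1, to the oxysterol receptor LXR and to the glucose-responsive factor ChREBP, encoded by Mlxipl. Macrophages use both pathways for membranes and for lipid mediators.

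The 10 arrays each detected 42.9% to 45.3% of 46237 probes at a detection p under 0.05. The median raw signal was 90.3 to 93.4 intensity units on TCL1-AT arrays and 80.4 to 92.1 on WT arrays. TCL1-AT 4 stood apart on the second principal component (13.8% of the variance), at -32.5 against -14.6 or above on every other array. Values below are normalized log2 signals, and differences are TCL1-AT minus WT in limma's linear model with their standard error (SE) and a Benjamini-Hochberg adjusted p over all 14859 features. A gene was called at an adjusted p under 0.05, which 27.7% of all features passed, 12.3% higher and 15.4% lower in TCL1-AT. All monocyte marker genes with a named probe (8 of the 10 listed) were detected on all 10 arrays, and the list's mean was 10.51 to 10.78 on TCL1-AT arrays and 10.69 to 10.87 on WT arrays. In RNA of sorted cells, fewer cells of a type and less RNA per cell cannot be told apart.

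Most of the 30 tested sterol and fatty acid synthesis genes had fitted log2 differences under 0.5 in size between monocytes of leukaemic and control spleens. The largest measured differences were falls in 2 genes of the fatty acid branch. Mlxipl encodes the lipogenic factor ChREBP, and Lpin1 a phosphatidate phosphatase that makes diacylglycerol. Both were lower on every TCL1-AT array than on any WT array. Mlxipl was detected on 1 TCL1-AT array only, so its fall has only an approximate lower bound. Of the sterol branch, 0 of 18 tested genes were called higher and 2 lower (11.1%), Mvk and Dhcr7. Of the fatty acid branch, 2 of 12 were called higher (16.7%), Fads1 and Acsl4, and 2 lower (16.7%), Mlxipl and Lpin1. Mlxipl entered the test through the WT arrays. Beside the 27.7% called among all features, 11.1% of the sterol and 33.3% of the fatty acid genes were called in either direction, and the higher and lower shares of the fatty acid branch were near the background. At an unadjusted p under 0.05 limma's test had 1 sterol gene higher and 4 lower. The median log2 difference was -0.12 over the 18 sterol genes and -0.02 over the 12 fatty acid genes, beside 0.02 over all features. The fitted difference of 26 of the 30 genes was under 0.5 in size, a count given without a share of all features. Some of their 95% intervals ran further, such as -0.82 to 0.35 for Cyp51 and -0.70 to 0.07 for Idi1.

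**Figure D1:**
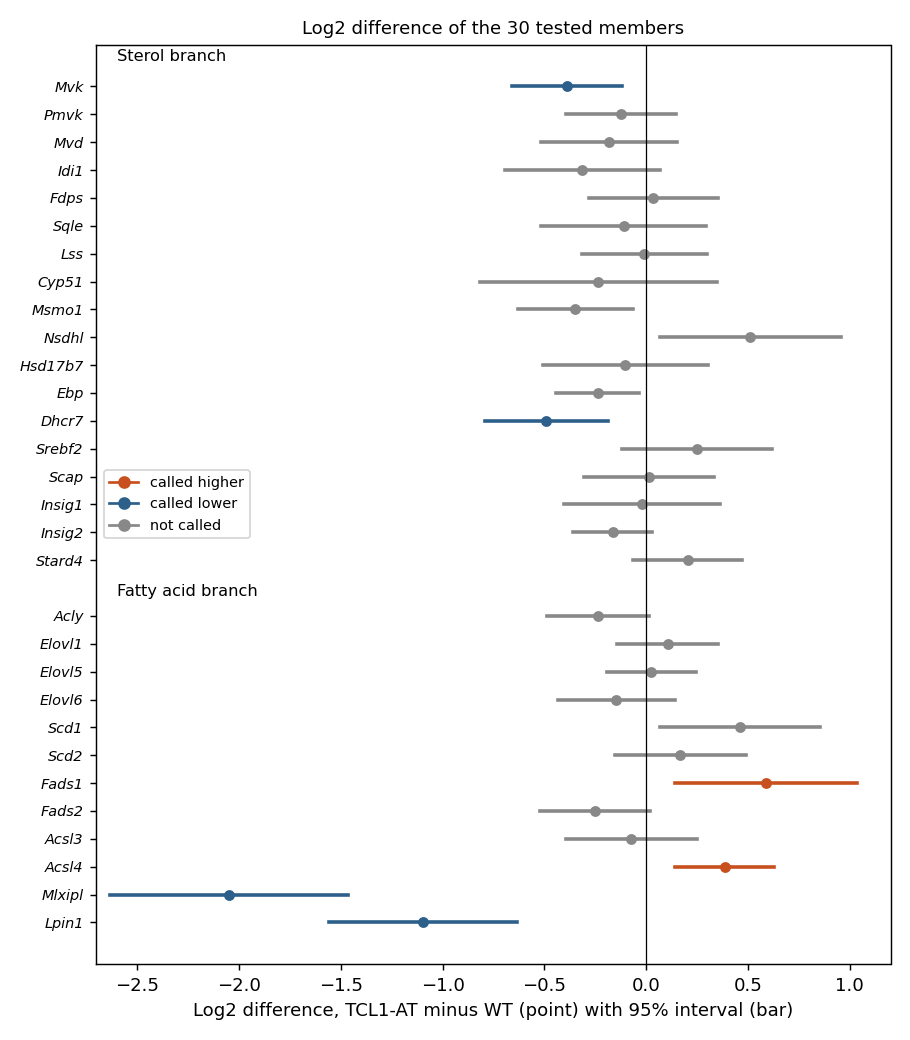
Log2 difference (horizontal axis, TCL1-AT minus WT) of each tested member with its 95% interval from limma's fit, sterol branch above and fatty acid branch below, coloured by call. Mlxipl at -2.05 and Lpin1 at -1.10 lie apart from the rest, whose points run between -0.49 and 0.59.

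Mlxipl was read at 4.10, 4.18, 4.26, 4.75 and 4.28 on TCL1-AT arrays 1 to 5, against 6.70, 6.79, 6.29, 5.18 and 6.88 on WT arrays 1 to 5. The groups did not overlap, which held for 20.5% of all features, 9.19% with TCL1-AT higher and 11.3% with it lower, and TCL1-AT 4 was the highest of its group and WT 4 the lowest of its own. The probe was detected on 1 of 5 TCL1-AT arrays, TCL1-AT 4, and on 5 of 5 WT arrays. Mean signal was 4.32 ± 0.26 (SD) on the 5 TCL1-AT arrays and 6.37 ± 0.70 on the 5 WT arrays, and limma's difference was -2.05 (SE 0.27, adjusted p = 0.000106). Mlxipl passed the detection filter through the WT arrays, and most TCL1-AT values lay at the detection limit. The difference therefore gives no exact size, and its p-value is not independent support. With undetected values raised to the lowest detected signal of their array, Mlxipl was at least about 3.96-fold lower. The bound is approximate, because some undetected probes lay above that signal. Fasn was undetected at 4.40 on TCL1-AT 3, where the lowest detected signal was 4.29. Mlxipl was called lower under each of 19 alternatives, which changed the processing or left out 1 array. All of them read the same probe with TCL1-AT values mostly at the detection limit, so they are not separate evidence. A further probe of Mlxipl was detected on 1 WT array and on no TCL1-AT array, and was not tested.

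For Lpin1 the levels were 5.55, 5.87, 5.11, 6.53 and 6.23 on TCL1-AT arrays 1 to 5, against 7.03, 6.81, 7.15, 6.87 and 6.91 on WT arrays 1 to 5. Every TCL1-AT array lay below every WT array, and the TCL1-AT arrays were the more spread, with a mean of 5.86 ± 0.56 against 6.95 ± 0.13 in WT (SD, n = 5 each). Lpin1 was 2.14-fold lower, a difference of -1.10 (SE 0.21, adjusted p = 0.00199). It was called under each of the 19 alternatives, at -1.28 to -0.91. Its other tested probe gave -1.46 when every probe was fitted apart.

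The sequences before the start sites of these 2 genes, and of 2 sterol enzymes described below, are shown because SREBP, ChREBP and NF-Y factors bind such motifs. They are from RefSeq on GRCm38.p6, cover the 250 bases upstream of the annotated start, 5′ to 3′ on the gene's strand, and capitals mark matches on either strand to the sterol regulatory element TCACNCCAC, the E-box CACGTG or the CCAAT box CCAAT, which NF-Y, a partner of SREBP factors, binds. Mlxipl has 2 annotated starts, at chr5:135089640-135089889 and chr5:135106641-135106890 on the plus strand. Lpin1 is on the minus strand at chr12:16610967-16611216. Mvk is on the plus strand at chr5:114444019-114444268 and Msmo1 on the minus strand at chr8:64733579-64733828.
Mlxipl, first start: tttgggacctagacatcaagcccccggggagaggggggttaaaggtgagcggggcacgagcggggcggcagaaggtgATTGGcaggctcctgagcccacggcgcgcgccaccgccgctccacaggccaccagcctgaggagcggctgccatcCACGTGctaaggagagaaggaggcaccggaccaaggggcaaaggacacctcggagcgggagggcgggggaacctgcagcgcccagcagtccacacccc
Mlxipl, second start: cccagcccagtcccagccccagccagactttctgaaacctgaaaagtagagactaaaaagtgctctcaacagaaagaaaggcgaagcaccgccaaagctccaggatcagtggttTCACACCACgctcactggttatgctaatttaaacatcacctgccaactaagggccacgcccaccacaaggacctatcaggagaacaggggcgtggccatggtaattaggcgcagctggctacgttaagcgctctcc
Lpin1: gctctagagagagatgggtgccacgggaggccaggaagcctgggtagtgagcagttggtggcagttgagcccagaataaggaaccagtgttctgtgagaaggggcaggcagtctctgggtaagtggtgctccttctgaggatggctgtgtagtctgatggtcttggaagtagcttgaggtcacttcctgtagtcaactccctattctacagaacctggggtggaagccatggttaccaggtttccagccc
Mvk: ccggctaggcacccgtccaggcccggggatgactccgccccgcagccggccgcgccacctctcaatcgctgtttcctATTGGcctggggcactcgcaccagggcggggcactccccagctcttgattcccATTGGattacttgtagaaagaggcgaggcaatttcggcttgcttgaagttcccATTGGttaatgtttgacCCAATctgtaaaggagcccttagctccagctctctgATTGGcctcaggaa
Msmo1: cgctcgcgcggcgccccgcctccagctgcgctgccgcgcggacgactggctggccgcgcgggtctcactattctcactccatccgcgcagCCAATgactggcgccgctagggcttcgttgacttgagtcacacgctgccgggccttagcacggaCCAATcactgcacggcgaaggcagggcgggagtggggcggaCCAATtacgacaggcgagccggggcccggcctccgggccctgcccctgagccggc

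In these windows Mlxipl had 1 E-box and 1 CCAAT box before its first start and 1 sterol regulatory element before its second, Lpin1 had no match to any of the 3 motifs, Mvk had 5 CCAAT boxes and Msmo1 had 3. A sterol regulatory element of these letters was in 1.05% of 32851 such windows of all genes, an E-box in 6.02% and a CCAAT box in 33.8%. RefSeq windows were given for 18 sterol members (24 starts) and 13 fatty acid members (17 starts). These are not the same genes as those tested. The sterol windows include the untested Acat2, Hmgcs1 and Sc5d and lack the tested Fdps, Sqle and Stard4. The fatty acid windows include the untested Acaca, Acsl1, Fasn and Me1 and lack the tested Scd1, Scd2 and Fads1. The CCAAT box was in 16 of 24 sterol windows and 7 of 17 fatty acid windows, and the E-box in 5 of 24 and 2 of 17. The sterol regulatory element was in 1 of 24 (Hmgcs1, which was not measured) and 2 of 17 (Mlxipl and Acsl1, of which Acsl1 was not measured). A match describes the letters in the window and does not show binding. CCAAT boxes stood before Mvk, called at -0.39, and before Msmo1, which differed by a similar -0.35 but was not called (adjusted p = 0.0647 in limma's fit). Dhcr7, also called lower, had 2 CCAAT boxes before 1 of its starts and 1 E-box before another.

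Both rises in the fatty acid branch were small and depended on single arrays. Fads1, a front-end desaturase that makes arachidonic acid, stood at 6.69, 5.95, 5.62, 6.47 and 6.57 on TCL1-AT arrays 1 to 5, against 6.01, 5.97, 5.33, 5.46 and 5.58 on WT arrays 1 to 5. TCL1-AT 2 and TCL1-AT 3 lay within the WT range. The difference was 0.59 (SE 0.21, adjusted p = 0.0486, 1.50-fold higher), and the call held under 9 of 19 alternatives. It was lost without any 1 of TCL1-AT 1, TCL1-AT 4, TCL1-AT 5, WT 3, WT 4 or WT 5.

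Acsl4 encodes an acyl-CoA synthetase that prefers arachidonic acid. Its levels were 6.17, 6.13, 6.34, 6.20 and 6.43 on TCL1-AT arrays 1 to 5, against 5.94, 5.57, 6.06, 5.76 and 6.02 on WT arrays 1 to 5. The groups did not overlap, with TCL1-AT 2 and WT 3 the nearest to each other. Acsl4 was 1.31-fold higher, a difference of 0.39 (SE 0.11, adjusted p = 0.0224), called under 12 of 19 alternatives and lost without any 1 of TCL1-AT 3, TCL1-AT 5, WT 2 or WT 4. Of its other tested probes 1 gave 0.35 and the other -0.03 when every probe was fitted apart.

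**Figure D2:**
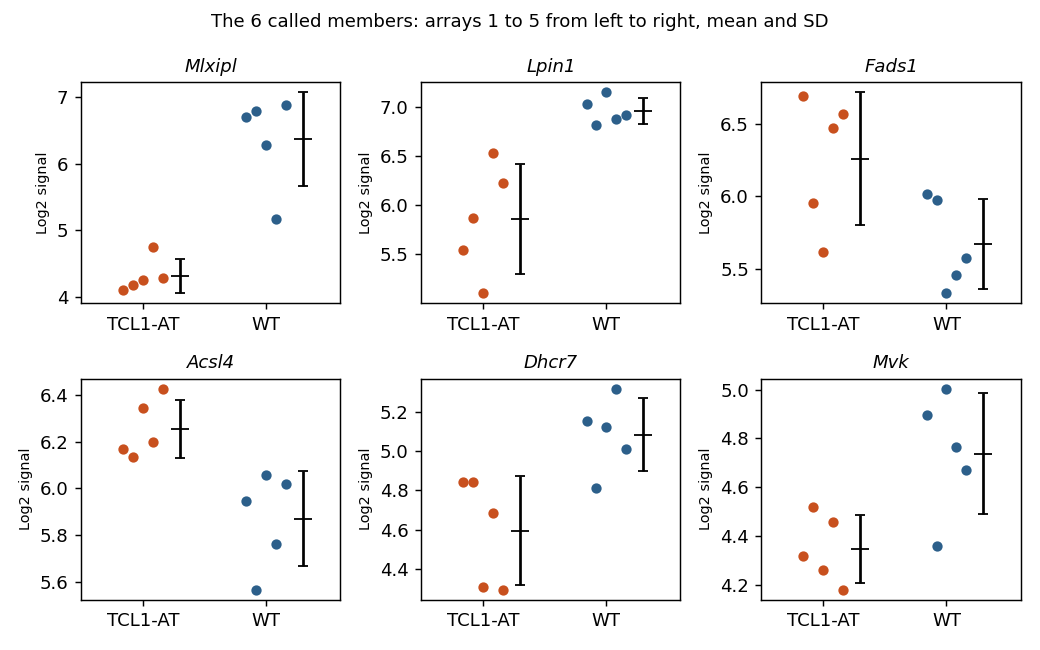
Normalized log2 signal of the 6 called members on the 5 TCL1-AT arrays (left) and the 5 WT arrays (right) in replicate order, with the group mean and SD as a bar; vertical axes differ between panels. Mlxipl and Lpin1 separate the groups most clearly, while Fads1, Dhcr7 and Mvk overlap.

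The other desaturases were not called. Scd1, the stearoyl-CoA desaturase that makes oleic acid, was at 4.72, 5.11, 4.91, 5.43 and 4.36 on TCL1-AT arrays 1 to 5, against 4.48, 4.18, 4.29, 4.84 and 4.45 on WT arrays 1 to 5. It was detected on 5 of 5 TCL1-AT and 3 of 5 WT arrays and differed by 0.46 (SE 0.18, adjusted p = 0.0777), with TCL1-AT 5 the lowest of its group, and it was called without TCL1-AT 5 (0.60, adjusted p = 0.0211) or without WT 4 (0.56, adjusted p = 0.0463). Scd2, the isoform of many other mouse tissues, was at 5.27, 5.54, 5.40, 5.97 and 5.07 on TCL1-AT arrays 1 to 5, against 5.09, 5.32, 5.49, 5.20 and 5.32 on WT arrays 1 to 5. Its difference of 0.17 had a 95% interval of -0.15 to 0.49, and TCL1-AT 4 was again the highest array. Fads2, which acts before Fads1 on the same fatty acids, differed by -0.25 (adjusted p = 0.155) and was detected on 3 of 5 TCL1-AT arrays.

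The supply and elongation genes were close in both groups. Acly, which makes cytosolic acetyl-CoA from citrate, was at 11.42, 11.42, 11.30, 11.24 and 11.26 on TCL1-AT arrays 1 to 5, against 11.52, 11.73, 11.27, 11.86 and 11.45 on WT arrays 1 to 5. Its difference was -0.24 (adjusted p = 0.147, 95% interval -0.49 to 0.01). The elongase genes Elovl1, Elovl5 and Elovl6 differed by 0.11, 0.02 and -0.15, and the 95% interval of Elovl5 was -0.19 to 0.24. Acsl3, an acyl-CoA synthetase of lipid droplets, differed by -0.07 (adjusted p = 0.755). Fasn, fatty acid synthase, was read at 4.19, 4.31, 4.40, 4.23 and 4.15 on TCL1-AT arrays 1 to 5, against 4.13, 4.51, 4.25, 4.11 and 4.11 on WT arrays 1 to 5, and only WT 2 detected it. Me1, malic enzyme, which supplies NADPH, was detected on no array, so neither gene gives a fold.

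In the sterol branch the 2 called genes lay close to the detection limit, which was 4.26 to 4.32 as the lowest detected log2 signal of an array. Mvk, mevalonate kinase, was at 4.32, 4.52, 4.26, 4.46 and 4.18 on TCL1-AT arrays 1 to 5, against 4.89, 4.36, 5.00, 4.77 and 4.67 on WT arrays 1 to 5. WT 2 lay within the TCL1-AT range. The difference was -0.39 (SE 0.13, adjusted p = 0.0335), with detection on 3 of 5 TCL1-AT and 5 of 5 WT arrays, and the call held under 9 of 19 alternatives. It was lost without any 1 of TCL1-AT 1, TCL1-AT 3, TCL1-AT 5, WT 1, WT 3 or WT 4.

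Dhcr7, which catalyses the last step of the Kandutsch-Russell route to cholesterol, was at 4.84, 4.84, 4.31, 4.69 and 4.29 on TCL1-AT arrays 1 to 5, against 5.15, 4.81, 5.12, 5.32 and 5.01 on WT arrays 1 to 5. WT 2 alone reached into the TCL1-AT range. The difference was -0.49 (SE 0.14, adjusted p = 0.0189), with detection on 3 of 5 TCL1-AT and 5 of 5 WT arrays. The call held under 14 of 19 alternatives and was lost without any 1 of TCL1-AT 3, TCL1-AT 5 or WT 4. Sc5d, the sterol desaturase that acts just before Dhcr7, was detected on no TCL1-AT array and on 4 of 5 WT arrays. Its WT mean was 4.71, which made it at least about 1.32-fold lower, an approximate bound as for Mlxipl. It failed the detection filter. Because all its TCL1-AT values were undetected, the fit without that filter gives no size or p-value for Sc5d beyond this bound.

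With the median raw signal of each array as a covariate, the calls of Mvk, Dhcr7, Fads1 and Acsl4 were lost, at -0.41, -0.59, 0.27 and 0.45, and those of Mlxipl and Lpin1 were kept. Scaling arrays to a common median in place of quantile normalization also ended these 4 calls, at -0.36, -0.47, 0.55 and 0.35, with adjusted p-values of 0.0617 to 0.0899. Calls fell over all features too, from 1828 higher and 2291 lower in the main fit. They were 779 higher and 1067 lower with the covariate, and 991 higher and 1688 lower under median scaling. These losses are therefore not particular to the 4 genes. The raw signal of WT 2 to WT 5 lay below that of every TCL1-AT array.

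Within TCL1-AT the sterol genes were spread more widely than within WT, and 2 arrays made up the ends. WT samples are labelled as pools and TCL1-AT samples are not, so the SDs of the groups may not be like measures. The part of pooling in this spread was not tested. The SD was larger in TCL1-AT than in WT for 14 of 18 sterol genes, against 46.2% of all features and 6 of 12 fatty acid genes. Its median over the sterol genes was 0.308 in TCL1-AT and 0.174 in WT, where over all features it was 0.189 in TCL1-AT and 0.199 in WT. TCL1-AT 4 was the highest array of its group for 12 of 18 sterol genes, as it was for 28.4% of all features, and TCL1-AT 5 was the lowest for 13 of 18, as it was for 16.3% of all features. Relative to each gene's WT mean, the median over the sterol genes was -0.17, -0.04, -0.08, 0.23 and -0.52 on TCL1-AT arrays 1 to 5, against 0.04, -0.02, 0.01, -0.03 and -0.02 on WT arrays 1 to 5.

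**Figure D3:**
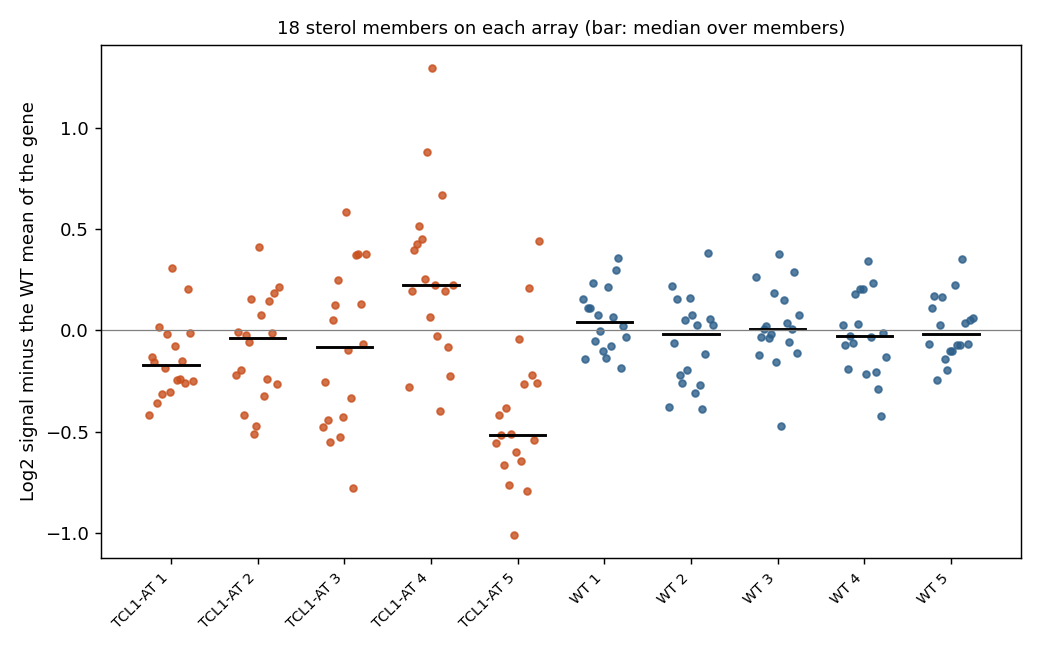
Each point is 1 of the 18 tested sterol members on 1 array, as log2 signal minus that gene's WT mean (vertical axis), and bars are medians over the members. The bar stands at 0.23 on TCL1-AT 4 and -0.52 on TCL1-AT 5, while the WT bars stay between -0.03 and 0.04. WT samples are labelled as pools.

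Cyp51 and Sqle were among the 14 with the larger spread in TCL1-AT. Cyp51, lanosterol demethylase, was at 7.10, 6.61, 6.59, 8.00 and 6.11 on TCL1-AT arrays 1 to 5, against 7.11, 6.92, 7.30, 7.32 and 6.92 on WT arrays 1 to 5. Sqle, squalene epoxidase, which is often rate-limiting after mevalonate, was at 7.96, 8.21, 8.40, 8.72 and 7.50 on TCL1-AT arrays 1 to 5, against 8.22, 8.01, 8.23, 8.45 and 8.43 on WT arrays 1 to 5. In both, TCL1-AT 4 lay above and TCL1-AT 5 below all 5 WT arrays. Cyp51 differed by -0.24 (adjusted p = 0.554) and Sqle by -0.11 (adjusted p = 0.699, 95% interval -0.52 to 0.29), and another probe of Sqle gave 0.23.

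Idi1, the isomerase of isoprenoid units, was at 4.74, 4.68, 4.55, 5.53 and 4.43 on TCL1-AT arrays 1 to 5, against 5.21, 5.25, 5.11, 5.07 and 4.85 on WT arrays 1 to 5. All TCL1-AT arrays except TCL1-AT 4 lay below all WT arrays. Msmo1, a sterol methyl oxidase, differed by -0.35 (adjusted p = 0.0647) and was 8.85 on TCL1-AT 4, 8.19 to 8.48 on the other TCL1-AT arrays and 8.63 to 8.99 on WT arrays. Ebp, a sterol isomerase, differed by -0.24 (adjusted p = 0.0762), and Mvd, which makes isopentenyl diphosphate, by -0.18 (adjusted p = 0.416).

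Nsdhl, a sterol dehydrogenase that acts next to Msmo1, had the largest positive difference of the branch, 0.51 (SE 0.21, adjusted p = 0.0809), with 6.68 on TCL1-AT 4, 5.35 to 5.97 on the other TCL1-AT arrays and 5.17 to 5.76 on WT arrays. Its other probes gave 0.36, -0.15 and -0.05. Pmvk, Fdps, Lss and Hsd17b7, which act at other steps of the chain, differed by -0.12, 0.04, -0.01 and -0.10, with adjusted p-values of 0.497 to 0.973. None of these 5 was called.

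How many sterol genes were called depended on TCL1-AT 4. Without it 7 of 18 were called lower, Mvk, Mvd, Idi1, Cyp51, Msmo1, Ebp and Dhcr7, and 0 higher, where 29.3% of all features were called, 13.8% higher and 15.5% lower. At an unadjusted p under 0.05 limma's test then had 0 sterol genes higher. Idi1 then differed by -0.50 (adjusted p = 0.00482), Msmo1 by -0.45 (adjusted p = 0.00909) and Cyp51 by -0.51 (adjusted p = 0.0400). Leaving out TCL1-AT 5 instead left 0 called lower and 1 higher, Nsdhl (0.65, adjusted p = 0.0302), where 22.3% of all features were called, 9.68% higher and 12.7% lower, and 3 sterol genes were lower at an unadjusted p under 0.05. None was called without TCL1-AT 3 or without WT 4, where 3 were lower at an unadjusted p under 0.05 each, and 1 to 2 were called lower without any other single array. The branch's median difference was -0.19 in the first of these fits and -0.01 in the second. The 2 fatty acid genes called lower, Mlxipl and Lpin1, were called without any 1 array. For Mlxipl these fits share 1 probe that was mostly undetected in TCL1-AT.

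**Figure D4:**
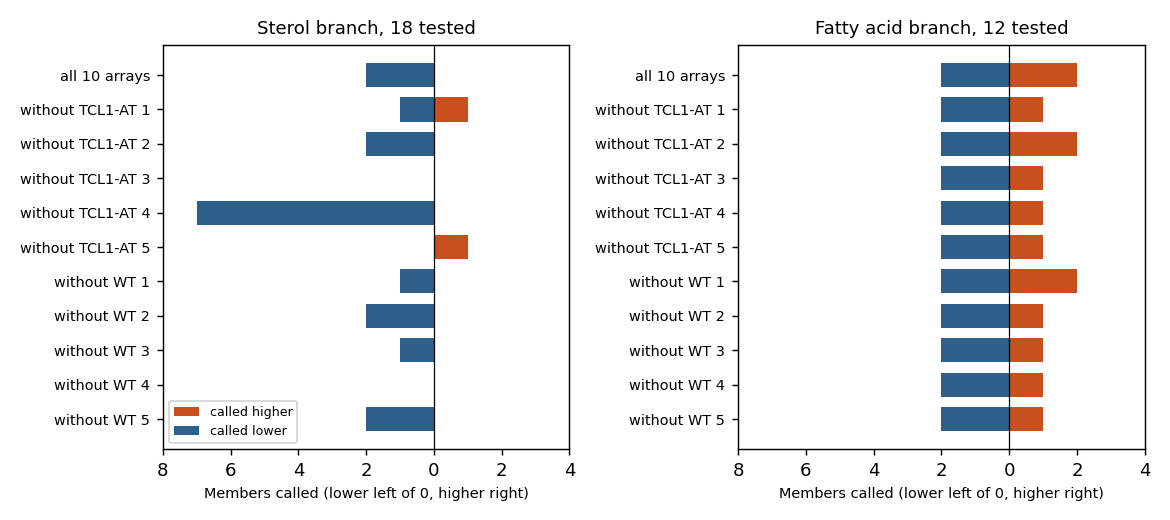
Number of members called lower (left of 0) and higher (right of 0) with all 10 arrays and with each array left out (rows), for the sterol branch (left panel) and the fatty acid branch (right panel). The sterol count of lower calls is 7 without TCL1-AT 4 and 0 to 2 in every other row, while the fatty acid branch keeps 2 lower calls throughout.

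TCL1-AT 4 also differed from the other TCL1-AT arrays in markers of some other cells. Its mean log2 signal was 5.75 for NK cell markers (6.03 to 6.39 on the others), 5.71 for dendritic cell markers (5.94 to 6.04), 4.73 for mast cell or basophil markers (4.98 to 5.84) and 10.27 for neutrophil markers (10.47 to 10.96). For monocyte markers it was 10.78 (10.51 to 10.68 on the others), and for red pulp macrophage markers 6.96 (7.03 to 7.34). On TCL1-AT 4 the B cell (5.19), T cell (6.08) and erythroid (6.93) means lay within the range of the other TCL1-AT arrays. TCL1-AT 5 was the highest array for NK cell markers (6.39) and erythroid markers (7.30). Between the groups, erythroid markers were at 6.61 to 7.30 in TCL1-AT and 5.47 to 6.42 in WT, and mast cell or basophil markers at 4.73 to 5.84 in TCL1-AT and 4.25 to 4.45 in WT. Dendritic cell markers were at 5.71 to 6.04 in TCL1-AT and 5.39 to 5.55 in WT, while T cell markers were at 6.08 to 6.36 in TCL1-AT and 6.91 to 7.26 in WT, so these 4 lists did not overlap between the groups. NK cell markers were at 5.75 to 6.39 in TCL1-AT and 5.60 to 5.79 in WT, and B cell markers at 5.09 to 5.68 in TCL1-AT and 4.97 to 5.14 in WT. Neutrophil markers were at 10.27 to 10.96 in TCL1-AT and 10.19 to 10.86 in WT, and red pulp macrophage markers at 6.96 to 7.34 in TCL1-AT and 6.96 to 7.11 in WT. Each of these lists had 4 to 8 genes with a named probe, and all but 3 of these genes were detected on at least 1 array. Detection on all 10 arrays held for 0 of 5 mast cell or basophil, 1 of 4 NK cell, 2 of 5 erythroid and 2 of 8 B cell genes. It held for 3 of 7 dendritic cell, 4 of 6 red pulp macrophage, 5 of 5 T cell and 8 of 8 neutrophil genes. Except for T cells and neutrophils, the list means therefore include undetected values near the detection limit. Ncr1, Xcr1 and Cd5l, which mark NK cells, cross-presenting dendritic cells and tissue macrophages, were detected on no array. The part of these markers in the results above was not tested.

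The regulators of the sterol branch showed no called difference. Srebf2, which encodes SREBP2, was at 8.22, 8.52, 8.75, 9.04 and 8.58 on TCL1-AT arrays 1 to 5, against 8.67, 7.99, 8.31, 8.17 and 8.72 on WT arrays 1 to 5. Its difference was 0.25 (adjusted p = 0.308, 95% interval -0.12 to 0.62), with TCL1-AT 4 again highest, and its other probe gave 0.16. Insig1, the retention protein that SREBP factors themselves induce, was at 6.31, 6.29, 6.24, 6.02 and 5.56 on TCL1-AT arrays 1 to 5, against 5.92, 6.49, 6.39, 5.68 and 6.04 on WT arrays 1 to 5. Insig1 differed by -0.02 (adjusted p = 0.945, 95% interval -0.40 to 0.36), and here TCL1-AT 4 was not the highest array.

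Scap, the escort of SREBP, differed by 0.02 (95% interval -0.30 to 0.33). Insig2, the second retention protein, differed by -0.16 (adjusted p = 0.196), while its other tested probe gave -0.47 and the mean of both was called (-0.32, adjusted p = 0.0205). Stard4, a sterol carrier, differed by 0.20 (adjusted p = 0.252) and was called only when TCL1-AT 1 was left out (0.32, adjusted p = 0.0344). These intervals bound the size of a difference in these samples and do not show that the levels were equal.

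Beyond the members, 5 further lists of lipid genes were read in the same fit. Of 14 tested genes of sterol uptake, transport and storage, 7 were called lower (50.0%) and 0 higher, where limma's unadjusted p was under 0.05 for 1 higher gene. Cyp27a1, sterol hydroxylase, was 1.98-fold lower, at 10.28 ± 0.13 in TCL1-AT against 11.26 ± 0.13 in WT (SD, n = 5 each). Nceh1, a cholesteryl ester hydrolase of macrophages, was 1.83-fold, Npc2, a lysosomal cholesterol carrier, 1.80-fold and Lrp1, a lipoprotein receptor, 1.47-fold lower.

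Among 10 tested genes of other sterol enzymes and SREBP handling, 1 was called higher and 2 lower. Lbr, a sterol reductase and nuclear envelope protein, was 1.90-fold lower at its brightest probe, but its other probe gave 0.21 and the mean of both was not called (-0.36, adjusted p = 0.0616). Erlin1, an SREBP regulator of the endoplasmic reticulum, fell by 0.32 and Cyb5r3, a reductase that feeds sterol and fatty acid desaturation, rose by 0.31, and neither was called as the mean of its probes. Srebf1, which encodes SREBP1, differed by -0.19 (adjusted p = 0.330).

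In the list of other fatty acid synthesis and elongation genes, 2 of 20 were called higher and 8 lower (40.0%). Acss2, which makes acetyl-CoA from acetate, was 1.91-fold lower and its other probe gave -0.37. Hacd4, an enzyme of the elongation cycle, was 1.97-fold and Fads6, a desaturase family member, 1.78-fold lower. Nr1h3, which encodes LXR alpha, was 8.35-fold higher at 10.93 ± 0.12 in TCL1-AT against 7.87 ± 0.19 in WT (SD, n = 5 each), a log2 difference of 3.06, while its other probe gave 2.07.

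Triglyceride and phospholipid synthesis had 6 of 25 genes called higher (24.0%) and 1 lower, with Lpin1 not counted there. Dgat2, which makes triglyceride, was 2.12-fold higher, Agpat4 1.92-fold and Agpat1 1.79-fold, both acyltransferases that make phosphatidate, the substrate of Lpin1. Lpcat2, which remakes phosphatidylcholine, was 1.77-fold higher. Of 18 genes of fatty acid oxidation, 2 were called higher and 4 lower, with Echs1, an enoyl-CoA hydratase, 1.80-fold and Hadhb, a thiolase, 1.40-fold lower. The other probe of Echs1 gave -0.25 and was not called (adjusted p = 0.270). Hadh, a dehydrogenase of the same cycle, was among the 4 but was detected on 1 of 5 TCL1-AT and 5 of 5 WT arrays. It passed the filter through WT, and was at least about 1.19-fold lower with undetected values at the lowest detected signal. Acadl, a dehydrogenase of the first step, was 1.42-fold higher, and its other probes gave 0.13 and 0.41. That call was lost in the fits without any 1 of TCL1-AT 1, 3, 4 or 5 or WT 1, 3 or 5, without the detection filter, under median scaling and with the raw signal as a covariate. The lists were not tested as lists, and their shares stand beside the 12.3% higher and 15.4% lower among all features.

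**Figure D5:**
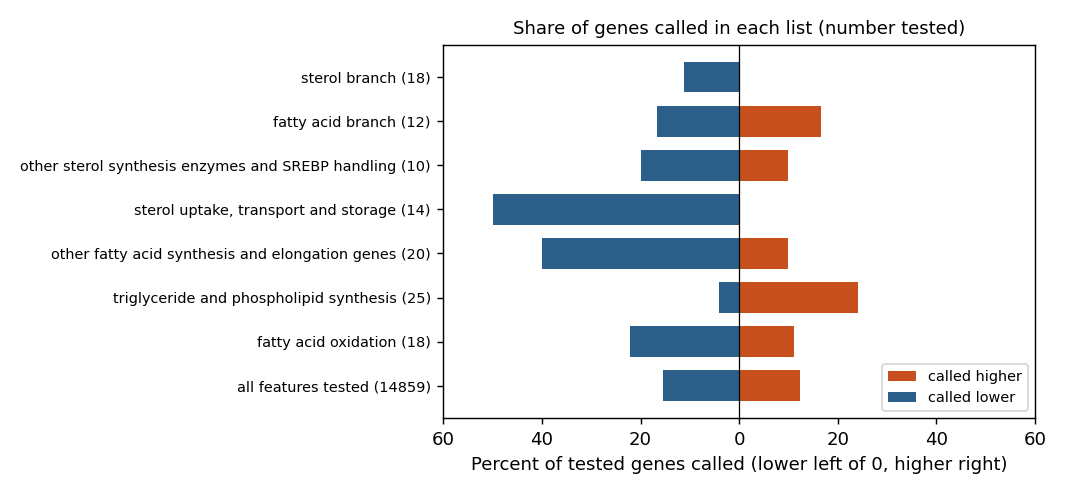
Percent of the tested genes called lower (left of 0) and higher (right of 0) in TCL1-AT, for both branches, the 5 further lipid lists and all features, with the number tested in brackets. Sterol uptake, transport and storage has 50.0% called lower, against 15.4% of all features and 11.1% of the sterol branch.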

How the data were processed

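Per the labels' protocols, total RNA was amplified to biotin-labelled cRNA, here hybridised to 10 arrays. The deposited table gives a linear signal intensity and a detection p-value per probe. The authors' series matrix gives log2 values, with no processing step given in the sources used here. They differed from neqc of limma 3.58.1 (offset 16) by at most 0.000428, with a median of 4.30 on every array, so they are log2, background-corrected and quantile normalized. These log2 values were used in R 4.3.3. Probes were named from the platform annotation, updated through a RefSeq gene table of GRCm38.p6 (28620 probes by Entrez identifier, 2637 by accession, 4527 kept their symbol, 10453 unnamed). The lmFit and eBayes fit was 2-sided and was tested on simulated data. For arrays, their number limits the precision. The members, lists and tests were chosen with earlier results of these data known. Every member is named; values by array go to members called without overlap and to Hmgcs1, Sqle, Insig1, Srebf2, Fasn, Scd1, Scd2, Mlxipl and Acly where measured, and other lipid genes are the up to 4 called with the largest difference in each list, with Srebf1, Nr1h3 and 2 more genes that had no named probe and were not analysed here. Values by array were also given, after they were seen, for Fads1, Mvk, Dhcr7, Cyp51 and Idi1. For an at-least fold, each undetected value was raised to the array's lowest detected signal, a step added for Mlxipl and Hadh after their values were seen. Some undetected probes lay above that signal, so each at-least fold is approximate. The 19 alternatives were neqc, median scaling, no or a stricter detection filter (p under 0.01), the mean of detected probes, array weights, a trended robust variance, raw signal as a covariate, a replicate block and each array left out. The neqc fit in effect repeats the main one, and both filter settings left the log2 differences of the tested members unchanged. A count out of 19 therefore includes fits close to the main one. The file headers give no slide, so a slide block was not run.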

Additional observations from a re-analysis of the deposited data

Results flagged for a closer look

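Of 60 groups of 5 values, those of the 30 tested members in TCL1-AT and in WT, 2 held an array whose gap to its nearest neighbour exceeded 0.71 of the group's range, a size that chance gives in about 1 of 20 groups. Both were TCL1-AT 4. Idi1 was 5.53 on that array, with the next highest TCL1-AT array at 4.74, and Mlxipl was 4.75, with the next at 4.28. Without TCL1-AT 4, Idi1 was called lower, and Mlxipl, then detected on no TCL1-AT array, was at least about 4.22-fold lower.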

How the results depend on the processing

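The calls of Mlxipl and Lpin1 kept their direction and their side of the threshold under all 19 alternatives. For Mlxipl, which passed the filter through WT and was mostly undetected in TCL1-AT, these fits are not separate evidence. The sterol branch had 2 genes called lower, against 0 under median scaling, 0 with the raw signal as a covariate (4 and 2 lower at limma's unadjusted p under 0.05), 1 with the replicate block, 4 with a trended robust variance and 5 with array weights. The fatty acid branch had 2 called higher, against 0 under median scaling and with the covariate, and 1 with no detection filter, with the mean of detected probes and with array weights. Over all features, 1828 were called higher and 2291 lower, against 991 higher and 1688 lower under median scaling and 779 higher and 1067 lower with the covariate. Array weights gave 2085 higher and 2475 lower, and a trended robust variance 1916 and 2401. The mean of detected probes gave 1732 higher and 2220 lower. Without the detection filter, 1600 were higher and 2053 lower, of 32399 features. The cause of these shifts was not tested. Some small differences that were never called changed sign: Elovl5 was -0.10 under median scaling and -0.0080 with the covariate, Fdps -0.046 under median scaling and -0.072 with array weights, and Scap -0.033 and -0.029 under these and -0.012 with the covariate. Insig1 was 0.044 with the mean of probes and 0.28 with the covariate, and Sqle was 0.062 and 0.021 under the same settings. With each array left out in turn, 1438 to 2047 features were called higher and 1880 to 2307 lower, 0 to 1 sterol genes higher and 0 to 7 lower, and 1 to 2 fatty acid genes higher and 2 to 2 lower. The branch medians were then -0.19 to -0.01 (sterol) and -0.10 to 0.02 (fatty acid). Across these fits Acsl3 ran from -0.17 to 0.025, Elovl5 from -0.019 to 0.078, Fdps from -0.084 to 0.14, Hsd17b7 from -0.22 to 0.032, Insig1 from -0.13 to 0.11, Lss from -0.074 to 0.12, Scap from -0.075 to 0.11 and Sqle from -0.25 to 0.052. Deviations from the group mean in samples of the same replicate number correlated at -0.17, 0.20, 0.05, -0.17 and -0.07. For replicate 2 this was above its highest correlation with another number, 0.16, and for the others it was below. These 5 values cannot settle whether the numbers pair the samples. The replicate block called 1506 features higher and 1982 lower and ended the call of Mvk (adjusted p = 0.0716 in limma's fit). A slide block was not run, because no slide is given. With 5 arrays in each group, dim probes such as Mvk, Dhcr7 and Sc5d were measured near the detection limit.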
